A study of Mus musculus with 2 samples.

Results

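The serotonin receptor genes of the mouse were examined in a map of EGR1 binding in frontal cortex. The 9 genes are Htr1a, Htr1b, Htr2a, Htr2c, Htr3a, Htr4, Htr5a, Htr6 and Htr7, and a peak was counted for a gene when its centre lay in the gene body or within 10 kb of a transcription start site (TSS) of the gene in GENCODE release M21. By this rule 1 of the 12014 EGR1 peaks fell on a serotonin receptor gene, and it lay at Htr4. The DNA bound by the transcription factor EGR1 was recovered with an antibody (ChIP-seq) from cross-linked frontal cortices of 6-week-old male F1 hybrids of 129SvEv females and a C57BL/6N male, with several animals pooled per experiment and 2 replicates. The labels name no treatment or mutation for these animals. An input DNA library is listed but is not analysed here. The peak list merges the replicates and gives for each peak its position and its irreproducible discovery rate (IDR), where lower values stand for stronger and better shared peaks. The highest IDR in the list was 0.01999. The list holds no read counts, so depth per peak and the spread between replicates are unknown.

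Serotonin is released in the cortex by axons of the raphe nuclei and acts on a family of receptors that differ in their coupling. Receptors of the types 1 and 5 couple to Gi/o proteins and lower cyclic AMP, those of type 2 couple to Gq and activate phospholipase C, those of types 4, 6 and 7 couple to Gs and raise cyclic AMP, and the type 3 receptor is a cation channel opened by serotonin. EGR1 is a zinc finger factor that is induced by neuronal activity and binds GC-rich sites with the core GCGTGGGCG or GCGGGGGCG, mostly near gene starts.

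Of the 9 serotonin receptor genes, 1 carried a peak (11.1%, 95% Wilson interval 1.99 to 43.5%). Of the 21938 protein-coding genes on assembled chromosomes, 39.6% carried a peak by the same rule. The interval of the receptor genes holds that share, so with 9 genes the lower share was within counting error. The interval covers counting error only, and genes are not replicates. The median distance from a TSS of the gene to the nearest peak centre was 388.4 kb for the 9 receptor genes and 30.6 kb for protein-coding genes. The nearest peak was over 100 kb away for 6 of the 9 genes, against 30.2% of protein-coding genes. The gene just inside the limit of 10 kb was Htr4 at 96 bp, and the gene just outside it was Htr6 at 26.1 kb.

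**Figure D1:**
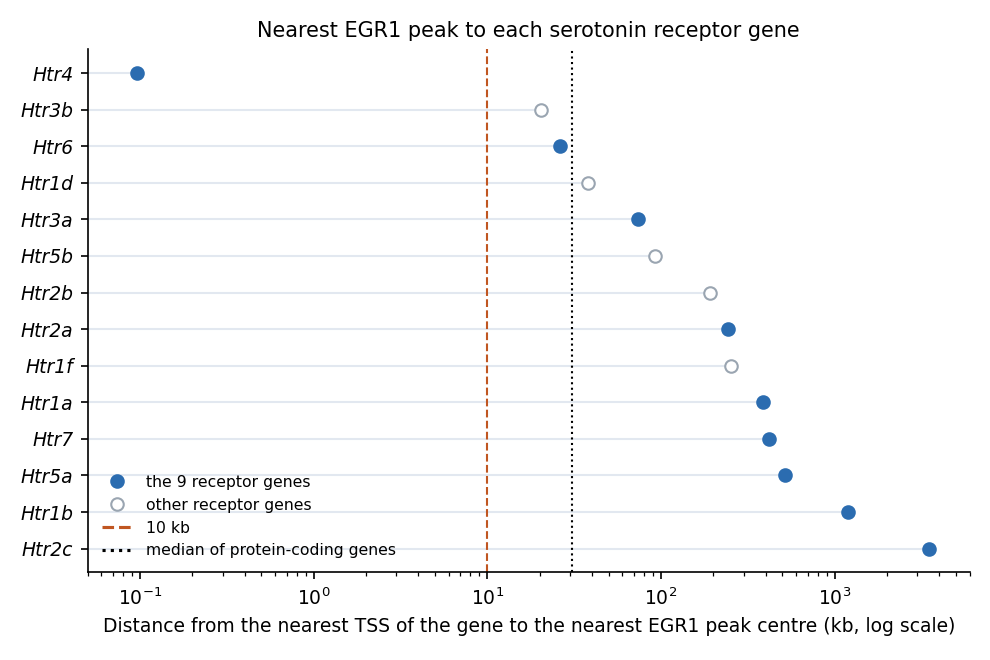
Distance in kb, on a log scale, from the nearest TSS of each serotonin receptor gene to the nearest EGR1 peak centre; filled points are the 9 genes and open points the 5 other receptor genes. Htr4 alone lies left of the dashed line at 10 kb, and Htr2c lies farthest to the right at 3479 kb.

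The peak at Htr4, which encodes a Gs-coupled receptor, had its centre 96 bp upstream of the most 5′ TSS of the gene. It spans 250 bp at chr18:62323983-62324232 (mm10, start read as in a BED file), and reaches over the start into the gene body at 62324204 to 62496577 on the forward strand. No TSS of another gene was nearer, and of all peaks on assembled chromosomes 63.6% had a centre within 2 kb of a TSS. Its IDR of 0.000294 ranked 5925 of 12014, and 49.2% of the peaks on assembled chromosomes had a lower IDR, so the peak sat in the middle of the list. Its GC content was 72.0%, higher than that of 89.1% of all peaks, whose median was 60.4%. Its CpG ratio, the observed number of CpG dinucleotides over that expected from the base composition, was 0.601 with 19 CpGs, and the median of all peaks was 0.600. The peak held neither GCGTGGGCG nor GCGGGGGCG on either strand, and its best 9-base window differed from the motif by 1 base. An exact match was present in 16.6% of all peaks, and a window with at most 1 mismatch in 69.8%.

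Htr4 has 4 annotated transcripts over 172.4 kb, of which 1 starts at the peak and 3 start 16.8 to 16.9 kb further downstream. No peak centre lay in the gene body, and none lay within 10 kb of the downstream starts. A second peak had its centre 56.7 kb upstream of Htr4, at an IDR of 0.00328, and the Htr4 start was the nearest TSS to it although it lay outside the limit. That peak had a GC content of 49.6%, a CpG ratio of 0.132 and a best window with 2 mismatches, so it was poorer in CpG than the peak at the start. Within 1 Mb of the Htr4 start there were 20 peaks.

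**Figure D2:**
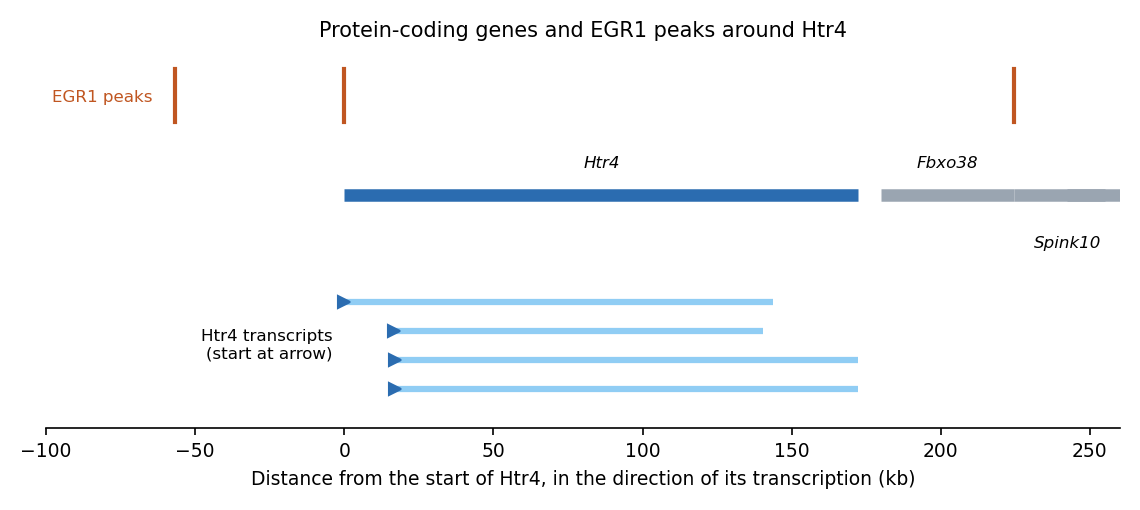
Protein-coding genes (bars), EGR1 peak centres (vertical lines) and the 4 Htr4 transcripts (arrows mark their starts) by distance in kb from the Htr4 start. A peak sits at the most 5′ start and another 56.7 kb upstream, and no peak centre lies in the 172.4 kb gene body.

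The 3 Gi/o-coupled receptor genes among the 9 had no peak by the rule, and their nearest peaks were over 100 kb away. Htr1a, the inhibitory receptor of raphe neurons and cortical pyramidal neurons, is a short gene of 4.48 kb at chr13:105443639-105448122, and its nearest peak was 388.4 kb upstream, at the promoter of Rgs7bp, 293 bp from a TSS. Htr1b, which encodes a receptor of axon terminals, lies at chr9:81628291-81633828, and its nearest peak was 1196 kb upstream near the start of Irak1bp1. For 96.2% of protein-coding genes the nearest peak was closer, and no peak lay within 1 Mb of its start. Htr5a, at chr5:27842149-27855088, had its nearest peak 517.5 kb upstream and 62.7 kb from a TSS of Dpp6. Between them the 3 genes had 0 peaks within 100 kb of their starts.

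The Gq-coupled receptor genes among the 9, Htr2a and Htr2c, are long, and long genes carried peaks more often, but none was found in either. Htr2a, the receptor gene through which classical psychedelics act on pyramidal neurons, spans 68.7 kb at chr14:74640840-74709494, and its nearest peak was 242.5 kb away, 1868 bp from a TSS of Lrch1. Htr2c, whose transcript is edited and which is abundant in the choroid plexus, spans 234.8 kb at chrX:146962513-147197277. Its nearest peak was 3479 kb upstream, farther than for 98.9% of protein-coding genes. No peak lay within 1 Mb of the Htr2c start.

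Htr3a, the channel subunit that marks a large class of cortical interneurons, lies at chr9:48899213-48911099. Its nearest peak was 74.2 kb upstream at the promoter of the ubiquitin protease gene Usp28, 95 bp from a TSS, and was among the strongest of the list, with an IDR of 8.24e-09 and rank 29. The neighbouring subunit gene Htr3b had the same nearest peak, at 20.3 kb. In a bulk tissue, a site bound in few cells and a site bound weakly in many cannot be told apart, and a site with an IDR above the limit is not in the list.

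The Gs-coupled receptor genes other than Htr4 differed from each other in their surroundings. Htr6, at chr4:139061108-139075570, lies in a region with 35 peaks within 1 Mb of its start. Its nearest peak was 26.1 kb downstream of an internal TSS of the gene, beyond the end of the gene. That internal TSS was the nearest TSS to the peak, which had an IDR of 8.95e-06 and rank 3716. Htr7, at chr19:35958734-36057507, had 6 peaks within 1 Mb and its nearest peak 419.8 kb upstream, 26.2 kb from a TSS of F530104D19Rik. In all, 3 peaks of the list had a serotonin receptor TSS as their nearest TSS, 2 at Htr4 and 1 at Htr6, and 2 of the 3 lay beyond 10 kb.

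The share of genes with a peak rose with gene span and with the CpG ratio of the promoter, so the receptor genes were set beside genes like them in these measures. When protein-coding genes were cut into 5 groups of equal size by span, 24.7% of the shortest genes and 57.6% of the longest carried a peak. Htr2a, Htr2c, Htr4 and Htr7 are in the group of the longest genes, and 1 of these 4 carried a peak. Htr1a is in the group of the shortest genes, Htr1b and Htr3a in the next, with 32.4%, and Htr5a and Htr6 in the middle group, with 39.5%. These genes carried no peak. By the CpG ratio within 500 bp of the gene start, the share with a peak was 9.59% in the lowest group and 61.3% in the highest. Htr3a, with a CpG ratio of 0.170, is in the lowest group. Htr1a, Htr1b, Htr2a, Htr2c, Htr4 and Htr5a, at 0.405 to 0.610, are in the middle group, of which 45.15% carried a peak. Htr6 at 0.755 is in the next group, with 58.2%, and Htr7 at 0.925 is in the highest. The promoter of Htr4, with a CpG ratio of 0.487, was thus not the richest in CpG of the 9, and the 2 richest, those of Htr6 and Htr7, carried no peak.

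**Figure D3:**
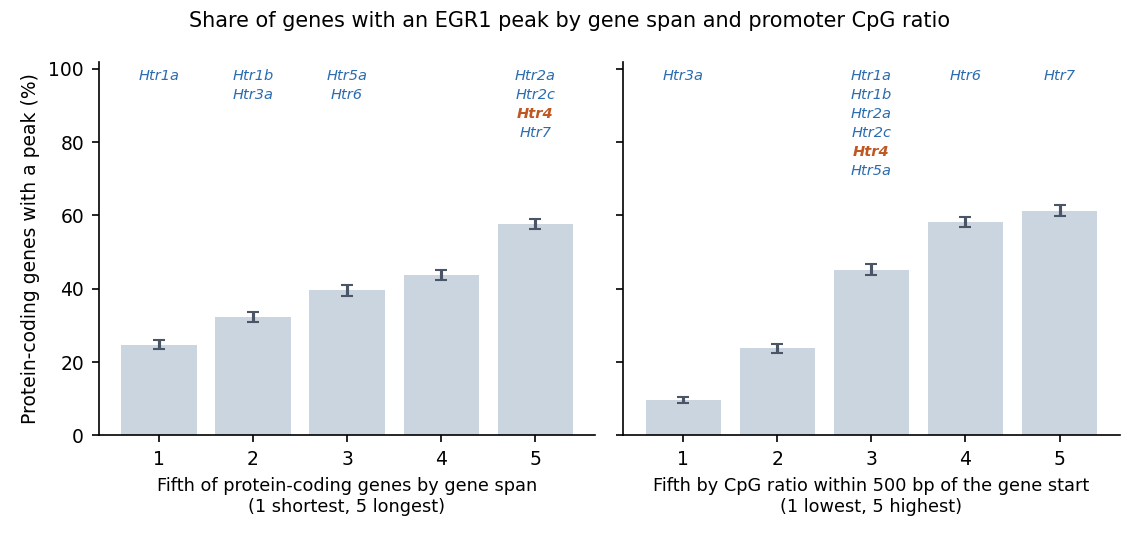
Percent of protein-coding genes with an EGR1 peak (bars, 95% Wilson intervals) in 5 groups of equal size by gene span (left) and by CpG ratio within 500 bp of the gene start (right), with the receptor genes of each group written above and Htr4, the gene with a peak, in bold. Shares rise from 24.7 to 57.6% with span and from 9.59 to 61.3% with CpG ratio, and Htr6 and Htr7 stand in the groups of higher CpG ratio without a peak.

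Promoter sequences show whether the EGR1 motif is present where no peak was found. RefSeq promoter windows, from 250 bases before to 50 after a gene start (GRCm38.p6, the same sequence as mm10), were used for Htr1a, Htr1b, Htr2a, Htr2c, Htr5a and Htr6 as 7 windows; Htr3a and Htr4 had none. The windows nearest to the motif in 3 of these promoters are printed on the strand of the gene, with the 9 bases that best match GCGTGGGCG or GCGGGGGCG, read on either strand, in capitals. Htr2a and Htr5a are shown because they differ from the motif by 1 base, and Htr1b as a promoter whose best window differs by 2 bases. They lie at chr14:74640757-74640785 (forward strand), chr5:27841864-27841892 (forward) and chr9:81633819-81633847 (reverse), in the same order.
Htr2a: atgggggcgcGCGGGGGAGggggttgttt
Htr5a: aagcaggtctGGGTGGGCGcgccagcgtg
Htr1b: tagacccggaCGCCCGCACtaagtctgtg

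Of the 7 windows of these 6 genes, 0 held an exact match. That 0 of them shared a base with a peak follows from the count above, since these genes had no peak within 10 kb of a TSS. Over all 32851 RefSeq promoter windows, 3.47% held an exact match and 13.1% shared a base with a peak. A stretch with at most 1 mismatch was present in 2 of the 7 receptor windows (28.6%) and in 27.2% of all windows, so the shares were near each other. Among windows with an exact match, 65.4% shared a base with a peak (95% Wilson interval 62.6 to 68.1%). The share was 32.8% of windows whose best match had 1 mismatch, as in Htr2a and Htr5a, and 4.12% of windows with 2 or more, as in Htr1a, Htr1b, Htr2c and Htr6. Over the whole regions of the rule, gene bodies included, the 8 genes other than Htr7, with regions of 20.0 to 244.8 kb, held 0 exact matches. On all assembled chromosomes there were 7559 exact matches, of which 28.7% lay in a peak. A match of these letters is a description and not a binding site, and the absence of a match says only that these letters are not there.

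The 5 other serotonin receptor genes, Htr1d, Htr1f, Htr2b, Htr3b and Htr5b, carried no peak. Their nearest peaks were at 20.3 kb for Htr3b, 38.2 kb for Htr1d, 92.4 kb for Htr5b, 191.2 kb for Htr2b and 254.0 kb for Htr1f. Over all 14 receptor genes, 1 carried a peak (7.14%, 95% Wilson interval 1.27 to 31.5%), beside 39.6% of protein-coding genes. The 14 are not independent, since Htr3a and Htr3b are neighbours with the same nearest peak.

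Some of the genes that make, move and break down serotonin carried peaks. Of 11 such genes, 5 carried a peak (45.5%, interval 21.3 to 72.0%), a share near that of protein-coding genes. Slc29a4, a plasma membrane transporter of monoamines, carried 3 peaks, and the strongest, with an IDR of 5.23e-07, had its centre 46 bp upstream of the gene start. A second had its centre 131 bp upstream of an internal TSS at an IDR of 2.78e-05. Maoa, the monoamine oxidase with a preference for serotonin, carried a peak 1207 bp upstream of its start with an IDR of 2.70e-06. Its neighbour Maob carried none and was 198.8 kb from the same peak. Tph1, the tryptophan hydroxylase of the pineal gland and gut, carried a peak 135 bp upstream of an internal TSS at an IDR of 0.00884. Gch1, which acts in the synthesis of the hydroxylase cofactor, carried a peak 291 bp upstream of its start, near the IDR limit at 0.0159. The peak counted for Fev, a transcription factor gene of serotonergic neurons, lay 9779 bp upstream and nearer to Cryba2. Tph2, Ddc, Slc18a2, Slc6a4, Slc22a3 and Maob had no peak. Of these, Tph2, Slc6a4 and Slc18a2 encode the neuronal hydroxylase, the serotonin transporter and the vesicular monoamine transporter, which serotonergic neurons use. The part of cell type in these counts was not tested.

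None of the 7 peaks of this group held an exact match of the motif. Windows with 1 mismatch in the peaks of Maoa (chrX:16618483-16618511, forward strand), Slc29a4 (chr5:142701878-142701906, forward strand, at the internal TSS) and Tph1 (chr7:46667496-46667524, reverse strand) are shown for comparison with the windows of Htr2a and Htr5a, which lie in no peak, with the same use of capitals.
Maoa: cccacagacaCGCCCCCTCcgcgtcatag
Slc29a4: agtggatgtaGCGTGGGCAgggagactgg
Tph1: aagctgctccCGCCCACACccgcgctgtt

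Genes listed as G proteins, effectors or partners of the receptors carried peaks in most cases. Of 25 signalling partners, 19 carried a peak (76.0%, interval 56.6 to 88.5%), beside 39.6% of protein-coding genes. These genes were also longer and richer in CpG, with a median span of 49.7 kb against 17.4 kb for protein-coding genes and a median promoter CpG ratio of 0.698 against 0.552, and the part of these measures in the count was not tested. The list was chosen with earlier results of these data known, so its interval is no test of the share. Of the 9 G protein alpha subunit genes in this list, which is not the whole family, 8 carried a peak. They cover all 3 kinds of coupling: Gnai1, Gnai2, Gnai3 and Gnao1 for Gi/o, Gnaq and Gna11 for Gq, and Gnas and Gnal for Gs. The exception was Gnaz. Centres lay 8 bp from a TSS of Gnal, 27 bp from one of Gnas, 72 bp from one of Gnao1 and 78 bp from one of Gnaq. Of the phospholipase C beta genes, Plcb1, Plcb2 and Plcb3 carried a peak and Plcb4 did not. The peaks counted for Plcb2 and Plcb3 lay outside the gene bodies and were nearest to a TSS of another gene. These were Ankrd63 for Plcb2, and Bad or Fkbp2 for Plcb3. Of the GIRK potassium channel subunits, which Gi/o-coupled receptors open, Kcnj5, Kcnj6 and Kcnj9 carried a peak, while Kcnj3 lay 677.5 kb from one. Both arrestin genes, Arrb1 and Arrb2, carried a peak, as did Dlg4, Mpdz and S100a10, which encode binding partners of serotonin receptors. The peak of S100a10 was near the IDR limit at 0.0192. Ric3, Rgs4 and Adarb1 carried none.

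Among other receptor families, the counts ranged widely. Of 14 dopamine and adrenergic receptor genes 2 carried a peak (14.3%), Adrb1 and Adrb3, and the peak of Adrb3 lay 9745 bp away and nearer to Eif4ebp1. All 5 dopamine receptor genes were without a peak, at 63.5 to 201.2 kb from the nearest. Of 9 somatostatin and opioid receptor genes 4 did (44.4%), Sstr1, Sstr2, Sstr3 and Oprm1, with centres 12 bp, 68 bp and 142 bp from a TSS of Sstr1, Sstr2 and Sstr3. The peak of Oprm1 lay in an intron, 10 bp from a TSS of Ipcef1. Of 8 metabotropic glutamate receptor genes 7 did (87.5%), all but Grm6, with centres 8 bp from a TSS of Grm5, 82 bp from one of Grm7 and 88 bp from one of Grm4. The families differ in length, with a median span of 318.0 kb for the glutamate receptor genes, 14.5 kb for the 9 serotonin receptor genes, 7.87 kb for the dopamine and adrenergic and 7.41 kb for the somatostatin and opioid receptor genes. Their median promoter CpG ratios were closer, at 0.423, 0.487, 0.591 and 0.409 in the same order. The part of span in these counts was not tested, and no difference between the families was tested.

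**Figure D4:**
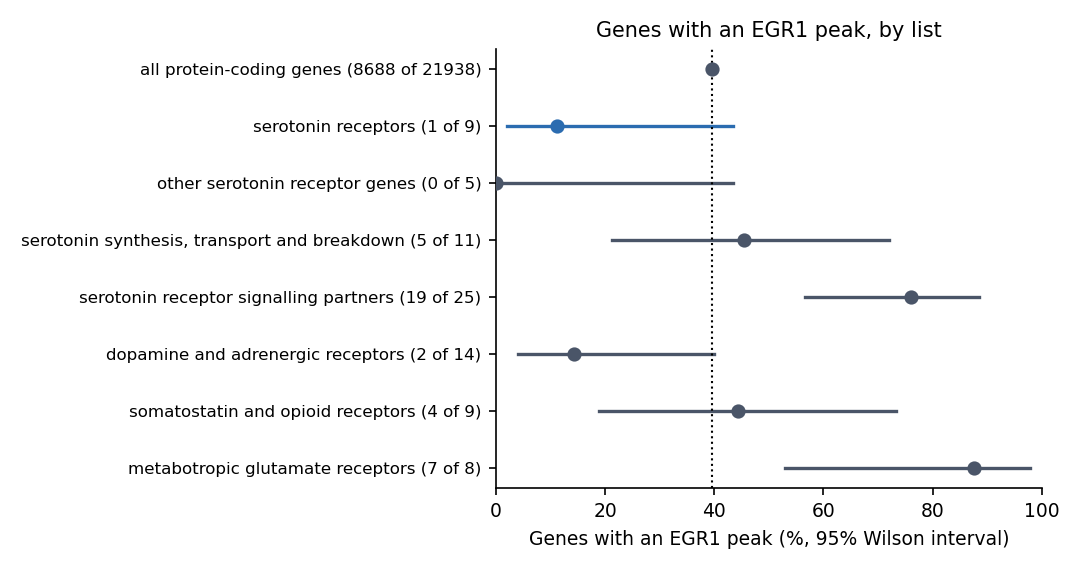
Percent of the genes of each list with an EGR1 peak (points) and 95% Wilson intervals (lines), which cover counting error only; the dotted line is the share of all protein-coding genes, 39.6%. The serotonin receptor genes lie at 11.1% with an interval that crosses the dotted line, and the signalling partners at 76.0% with an interval above it. The lists were chosen with earlier results of these data known, so the intervals are no test.

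A peak list has no expression levels, so the tissue label could not be checked by marker levels. Of 8 neuron marker genes 7 carried a peak (Rbfox3, Snap25, Syt1, Slc17a7, Camk2a, Gad1 and Gad2), and of 9 glia and microglia marker genes 3 did (33.3%; Aif1, Cx3cr1 and Mbp), beside 39.6% of protein-coding genes. The neuron markers had the larger median span, 70.3 kb against 21.5 kb, and the higher median promoter CpG ratio, 0.502 against 0.211, so the counts are no check of the cell types. The peaks of Aif1 and Cx3cr1 were nearest to the TSS of another gene.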

How the data were processed

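EGR1 ChIP-seq was analysed from the deposited list of merged peaks. Per the study's methods, the authors trimmed the reads, aligned them to the mm10 genome by Bowtie, ran SPP on each replicate and merged the peaks below the IDR limit. The submitters' processing notes list cutadapt 11.2, Bowtie2 2.2.9 and bedtools 2.26.0. The deposited value of each peak is its IDR, read like a q-value. The animals are F1 hybrids, while the reference is C57BL/6J, and the effect of strain variants on mapping was not tested.

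Positions were read as in BED files. Of the 12014 peaks, 76 on scaffolds entered only the rank of IDR, the range of IDR and the total. Genes and TSSs were from GENCODE M21, sequence from GRCm38.p6, and promoters from RefSeq. Distances run from the peak centre. Shares carry 95% Wilson intervals. Since the list is a single merged sample, no test between groups was run.

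The members and gene lists were chosen with earlier results of these data known. All serotonin receptor genes and all genes of synthesis, transport and breakdown are named, with the gene nearest to the closest peak where a receptor gene of the 9 has none. Of the signalling partners and other receptor families, those with a peak are named, and those named without one were added after their values were seen. The groups by promoter CpG ratio, the whole-region motif matches and the overlap of promoter windows with peaks were added after the peaks at the receptor genes had been counted. Alternatives covered the TSS distance, the gene body, overlap, transcript set, IDR limit, motif and window. Tools were scipy 1.17.1, pandas 2.3.3, numpy 2.4.6 and matplotlib 3.10.9 under Python 3.11.15, and the assignment and motif search were tested on simulated data. A gene near Htr4 and the motif search at Htr7 are not reported here.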

Additional observations from a re-analysis of the deposited data

How the results depend on the processing

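The count of 1 serotonin receptor gene with 1 peak held with a TSS distance of 2, 5 or 20 kb, with the TSS window alone, with any overlap, with basic transcripts, with an IDR limit of 0.01 or 0.005 and with the nearest TSS alone. With the gene body alone, 0 genes and 0 peaks were counted, since the Htr4 peak centre is upstream of the gene, and 5242 protein-coding genes (23.9%) in place of 8688 carried a peak. Under the other alternatives the share of protein-coding genes ranged from 29.1 to 45.9%. The peak at Htr4 held the EGR1 motif with 1 mismatch allowed (1 of 1 peak) and not as an exact match, also within 250 bp of its centre, where its GC content was 68.5% and its CpG ratio 0.550. The pathway, partner and receptor family lists were counted again only with a distance of 2 kb, with the TSS window alone and with an IDR limit of 0.01. Of the dopamine and adrenergic receptor genes, 1 carried a peak with a distance of 2 kb, and the other counts of these lists stayed within 1.5 times. The marker lists were not counted again. No paired analysis was possible because the list merges both replicates and the input DNA is not analysed here, and no replicate could be left out. Depth per peak is unknown, so a gene without a peak is a gene without a peak at this IDR limit.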
